A study of Homo sapiens with 6 samples.

Results

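The 53 genes described here encode proteins that copy DNA and make its precursors. They were taken by symbol from a list that spans origin recognition, licensing, the replicative helicase, the polymerases, the clamp and its loader, single-strand binding, deoxynucleotide supply and fork protection, and all 53 were found among the 58780 human genes of the tables. The RNA came from HCT116, an established human colorectal cancer line, in 2 groups of 3 libraries: 1 group had received auxin for 16 h and the other only its solvent, DMSO. Auxin, a plant hormone, is used to degrade proteins fused to an auxin-inducible degron. The labels name neither a tagged protein nor any other engineered allele, so the gene that auxin was meant to act on could not be checked, and no group of untagged cells given auxin was analysed here. Total RNA had been freed of ribosomal RNA, and the labels call the 3 libraries of a group biological replicates.

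Before S phase, the origin recognition complex (ORC) together with CDC6 and CDT1 loads the MCM2-7 helicase onto DNA as an inactive ring, and geminin blocks CDT1 once S phase has begun. The kinases CDC7-DBF4 and CDK2 then help recruit CDC45 and the GINS complex, which complete the active helicase, and the polymerases, the sliding clamp PCNA and the deoxynucleotide enzymes follow. Many of these genes are transcribed in late G1 and S phase under the control of E2F transcription factors, in cycling cells such as those of HCT116.

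The promoters carry a sequence feature that the choice of members did not use. RefSeq promoter sequences (GRCh38.p14, 250 bases before to 50 after the start) were at hand for 46 of the 53 genes, and 4 words of the E2F type were searched on both strands: TTTGGCGC, TTTCGCGC, TTTCCCGC and TTTGCCGC, which cannot share a start position but can overlap one another on opposite strands. At least 1 of them stood in 23 of the 46 promoters (50%), against 744 of the 11604 promoters of tested genes (6.41%). In the 250 bases before the start alone, the words stood in 17 of the 46 (37.0%), against 636 of the 11604 (5.48%). Only 7 promoters with a word lying clear of annotated exons were eligible for reading in full. The stretches are from 6 of these 7, the 3 genes that changed most and the 3 that changed least. Genes with a word that fell further, such as POLE (log2 fold change -2.54), LIG1 (-2.38) and CDT1 (-2.16), are not among the 7. The capitals mark the words as read on the gene's own strand, so a word in reverse appears as its complement.
POLA1 promoter, chrX:24693741-24693828, plus strand: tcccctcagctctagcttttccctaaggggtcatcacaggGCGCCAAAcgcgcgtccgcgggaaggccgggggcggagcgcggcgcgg
GMNN promoter, chr6:24775293-24775380, plus strand: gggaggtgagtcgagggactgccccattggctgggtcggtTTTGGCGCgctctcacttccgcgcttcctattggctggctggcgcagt
PCNA promoter, chr20:5126634-5126721, minus strand: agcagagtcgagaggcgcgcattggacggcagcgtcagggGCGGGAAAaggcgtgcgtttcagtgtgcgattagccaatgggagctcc
CDC7 promoter, chr1:91501038-91501107, plus strand: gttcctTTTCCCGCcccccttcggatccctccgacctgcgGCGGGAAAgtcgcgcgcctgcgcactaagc
TIPIN promoter, chr15:66356717-66356787, minus strand: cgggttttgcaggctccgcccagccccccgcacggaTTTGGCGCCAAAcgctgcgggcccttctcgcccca
MCM6 promoter, chr2:135876482-135876569, minus strand: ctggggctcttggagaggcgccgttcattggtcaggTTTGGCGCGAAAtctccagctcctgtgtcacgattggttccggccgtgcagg
The 3 upper genes fell after auxin and the 3 lower ones did not pass the test, although under a block on replicate number CDC7, TIPIN and MCM6 were called lower too. Across the 46 genes, the 23 with a word had a median log2 fold change of -0.84, with a range of -2.54 to -0.20, and the 23 without a word had one of -0.75, with a range of -3.27 to 0.71. The CCAAT word stood in 28 of the 46 promoters (60.9%, against 42.9% of those of tested genes), GGGCGG in 36 (78.3% against 74.7%), TTTGAA in 3 (6.52% against 13.8%) and TATAAA in 3 (6.52% against 9.04%). These matches describe the letters of the window only.

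After auxin, 43 of the 53 genes were lower, 3 were higher and 7 did not pass the test, with edgeR's quasi-likelihood test and a Benjamini-Hochberg adjusted p under 0.05 over all 19725 genes tested. Here and below, log2 fold changes of auxin over DMSO from that fit are given ± their standard error. Of all tested genes, 26.9% were lower and 25.4% higher by the same rule. In 18 of the 53 the fall was at least 2-fold, as it was in 13.3% of all tested genes. The median log2 fold change was -0.80 over the 53 and 0.02 over all tested genes. CPM, a gene's count scaled to the size of its library with TMM factors, was lower in every auxin library than in every DMSO library for 44 of the 53 genes (30.4% of all tested genes) and higher for 3 (30.0%). Within pairs of equally numbered libraries, 50 of the 53 were lower in all 3 pairs, as were 39.5% of all tested genes.

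**Figure D1:**
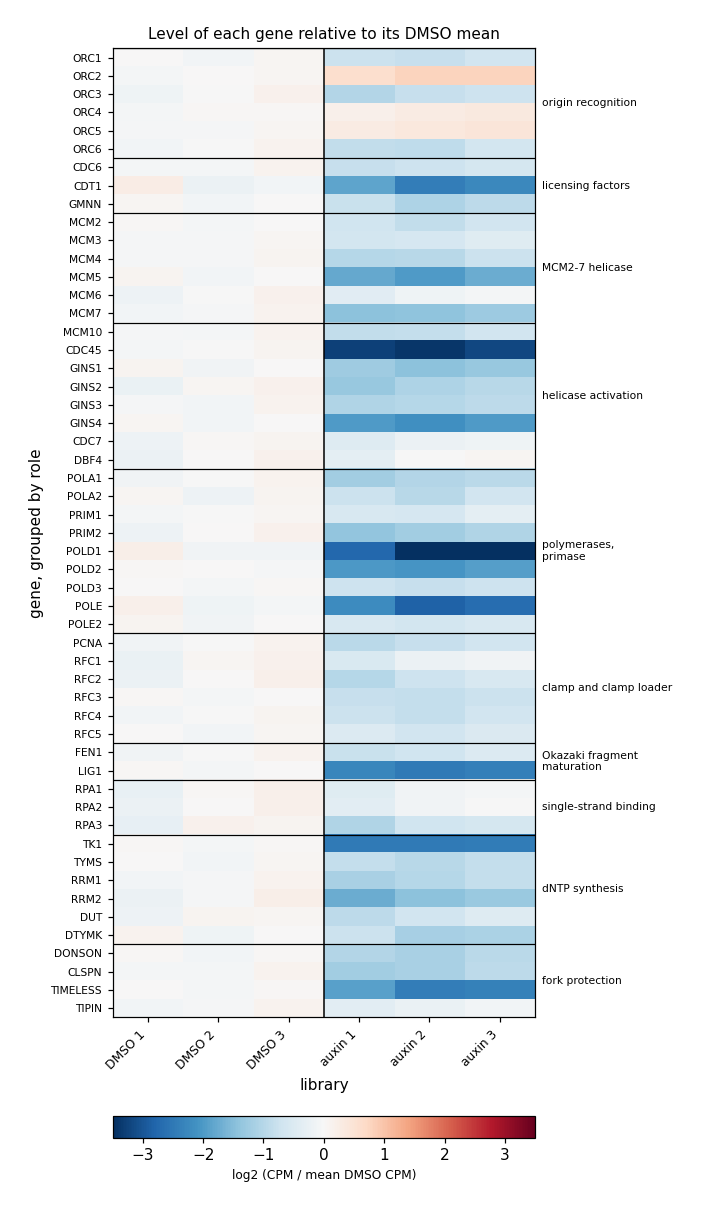
Level of each of the 53 genes in each library as log2 of its CPM over the mean DMSO CPM (colour), with genes as rows grouped by role and the 3 DMSO and 3 auxin libraries as columns. The auxin columns are blue for most rows, darkest for CDC45 and POLD1. ORC2, ORC4 and ORC5 are on the pale red side of the scale in every auxin library, with ORC4 the palest.

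A replicate block, which compares each auxin library with the DMSO library of the same number, raised the count of lower genes from 43 to 50, and 34.4% of all tested genes were lower by that fit. The 7 genes added were MCM6, CDC7, DBF4, RFC1, RPA1, RPA2 and TIPIN, and no call was lost. The labels do not state that equal numbers share a batch, so the block rests on a pairing that is not established. Without a block, MCM6, CDC7, RFC1, RPA1 and TIPIN were also called lower with library size only and without replicate 1 of both groups. DBF4 and RPA2 were called lower only in fits with the block. Bulk RNA cannot tell fewer cells in S phase from less RNA per cell. The heat map and the plot of fold changes by role both show a wide spread within roles, also between subunits of 1 complex.

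**Figure D2:**
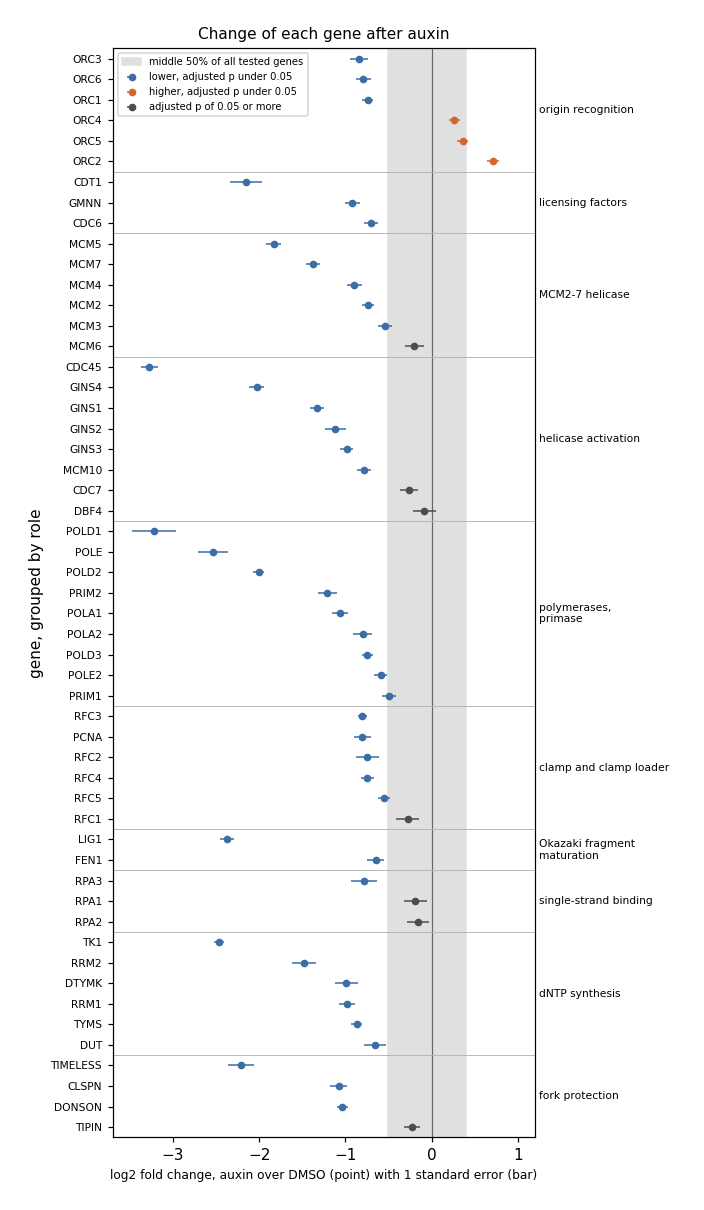
Log2 fold change of each gene after auxin (point) with 1 standard error to each side (bar), grouped by role and sorted within it; the grey band holds the middle 50% of all tested genes. Only the 3 orange points, ORC2, ORC4 and ORC5, were called higher, and the 7 dark points did not pass the test.

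The 6 subunits of the origin recognition complex split evenly, with ORC1, ORC3 and ORC6 lower and ORC2, ORC4 and ORC5 higher. ORC2, a core subunit (chr2:200908973-200963680 on GRCh38), had 64.1, 67.8 and 70.5 CPM in DMSO replicates 1, 2 and 3 and 101, 115 and 116 in auxin replicates 1, 2 and 3, a log2 fold change of 0.71 ± 0.072 (adjusted p 0.000179) in edgeR's test. Every auxin library lay above every DMSO library. ORC3, another core subunit and the one that fell most, went from 73.5, 80.2 and 89.6 to 40.2, 46.4 and 49.3 CPM, a log2 fold change of -0.84 ± 0.10 (adjusted p 0.000412) in edgeR's test, again without overlap. ORC5 rose by 0.36 (adjusted p 0.00256 in edgeR's test) and ORC4 by 0.26 (adjusted p 0.0117) on the log2 scale, and ORC1 and ORC6 fell by 0.74 and 0.79. The 3 rises did not hold in every setting: with limma-trend on log2(TPM + 1) or log2(TPM + 0.1) all 3 were lost, with an adjusted p of up to 0.0940 for ORC2, 0.705 for ORC4 and 0.463 for ORC5, and without auxin replicate 3 the call of ORC4 was lost. ORC2, ORC4 and ORC5 stayed above 0 on the log2 scale in all 17 other settings, at the lowest 0.48, 0.10 and 0.20.

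All 3 licensing factors fell, CDT1 by far the most. CDT1 (chr16:88803213-88809258), which brings the MCM ring to ORC, had 59.3, 42.4 and 45.9 CPM in the DMSO libraries and 13.6, 9.16 and 10.2 in the auxin libraries, a log2 fold change of -2.16 ± 0.19 (adjusted p 8.39e-05) in edgeR's test. The lowest DMSO library stood well above the highest auxin library. GMNN, which encodes geminin, the inhibitor of CDT1, fell from 42.2, 37.6 and 40.9 to 23.2, 19.2 and 21.3 CPM, a log2 fold change of -0.92 ± 0.088 (adjusted p 0.000136) in edgeR's test. The ratio of CDT1 to GMNN, compared per length in TPM, was 0.522 ± 0.0975 (SD, n = 3) in DMSO and 0.215 ± 0.0329 (SD, n = 3) in auxin, without overlap between the libraries. CDC6, the ATPase that acts with ORC, showed the smallest fall of the 3, -0.71 on the log2 scale (adjusted p 0.000296 in edgeR's test).

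Of the 6 subunits of the MCM2-7 ring, 5 fell and MCM6 did not pass the test. MCM5 (chr22:35400063-35425430) had 158, 138 and 148 CPM in DMSO and 42.6, 37.8 and 44.2 in auxin, a log2 fold change of -1.83 ± 0.083 (adjusted p 6.22e-06) in edgeR's test. MCM7 (chr7:100092728-100101940) went from 217, 224 and 248 to 84.9, 86.1 and 94.8 CPM, a log2 fold change of -1.37 ± 0.077 (adjusted p 1.40e-05). Neither gene overlapped between groups, whereas MCM6 did. MCM6 (chr2:135839626-135876426) had 249.7, 281 and 314 CPM in DMSO and 215, 254 and 266 in auxin, a log2 fold change of -0.20 ± 0.11 (adjusted p 0.173) in edgeR's test, and was lower within each pair, with an adjusted p of 0.000534 under the replicate block. MCM4, MCM2 and MCM3 lay between, with log2 fold changes of -0.90, -0.74 and -0.54.

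The subunits of the ring did not keep the same proportions in RNA. Levels were compared between subunits per length, in TPM, which unlike the CPM carries no TMM factors. Summed over the 6 subunits, the TPM was 1165, 844 and 932 in DMSO and 495, 431 and 549 in auxin. That is 50.2% of the DMSO mean, and 55.4% without DMSO replicate 1. MCM6 made up 8.05% ± 0.403 (SD, n = 3) of that sum in DMSO and 12.5% ± 0.836 in auxin, and MCM5 went from 6.84% ± 1.37 to 3.45% ± 0.814. MCM4 had the highest TPM of the 6 in every library, but the gap depended on the scale. In DMSO, MCM4 and MCM3 had means of 549 and 143 TPM but of 483 and 405 CPM. In auxin their means were 268 and 87.2 TPM but 259 and 279 CPM. The reason for this difference between the scales was not tested. The share of MCM2, at 4.85% ± 0.146 and 5.14% ± 0.252, overlapped between the groups. Over the 6 ORC subunits the summed TPM was 246, 173 and 192 in DMSO and 187, 155 and 179 in auxin, 85.2% of the DMSO mean and 95.0% without DMSO replicate 1, and the ranges overlapped. ORC2 went from 9.04% ± 0.304 to 14.97% ± 0.604 of the ORC sum, and ORC3 went from 18.9% ± 0.997 to 11.3% ± 0.448.

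**Figure D3:**
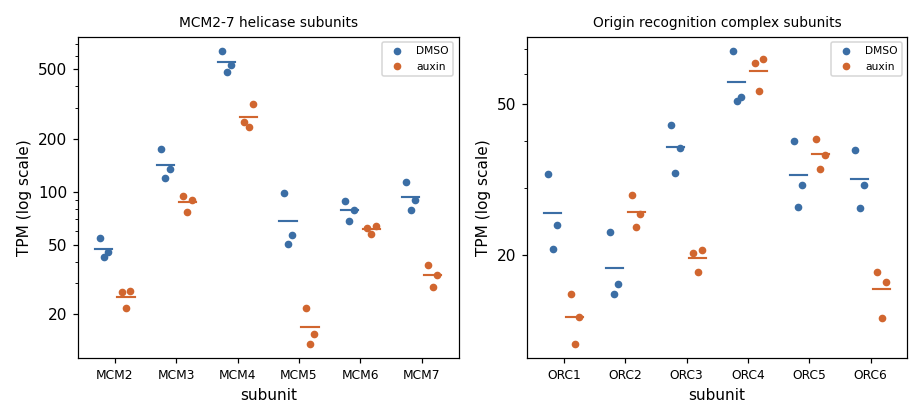
TPM on a log scale of each MCM2-7 subunit (left) and each origin recognition subunit (right) in the 3 DMSO and 3 auxin libraries, replicates 1 to 3 from left to right (points), with the group mean (line). MCM5 and MCM7 show the widest gaps between groups, and the DMSO and auxin points of ORC4 and ORC5 overlap on this scale.

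The genes that switch the helicase on held the largest fall of the whole set. CDC45 (chr22:19479459-19520612), the protein that joins GINS and the MCM ring in the active helicase, had 23.95, 24.97 and 26.9 CPM in DMSO and 2.64, 2.39 and 2.80 in auxin, a 9.67-fold fall and a log2 fold change of -3.27 ± 0.095 (adjusted p 1.99e-06) in edgeR's test. Libraries within a group were close, and the groups did not overlap. All 4 GINS subunits fell as well. GINS4 (chr8:41529206-41545046) went from 23.9, 21.00 and 22.96 to 5.69, 5.16 and 5.77 CPM, a log2 fold change of -2.03 ± 0.087 (adjusted p 4.89e-06). GINS1 (chr20:25407727-25452628) went from 95.6, 82.6 and 90.7 to 37.9, 32.99 and 36.02 CPM, a log2 fold change of -1.33 ± 0.079 (adjusted p 1.79e-05). For both, the groups stood apart by more than the spread within them. GINS2 (chr16:85676198-85690073) had 49.6, 60.9 and 64.6 CPM in DMSO and 23.4, 27.7 and 29.8 in auxin, a log2 fold change of -1.12 ± 0.13 (adjusted p 0.0003), and GINS3 had the smallest fall of the 4, at -0.99. The summed TPM of GINS was 37.9% of the DMSO mean, 43.2% without DMSO replicate 1, and the share of GINS4 in it went from 10.9% ± 1.29 (SD, n = 3) to 6.86% ± 0.443. MCM10, which helps the helicase start, fell by 0.78 on the log2 scale.

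Neither part of the kinase that triggers helicase activation passed the test. CDC7, the catalytic subunit (chr1:91500893-91525764), had 55.5, 64.2 and 66.8 CPM in DMSO and 45.8, 53.9 and 55.8 in auxin, a log2 fold change of -0.26 ± 0.10 (adjusted p 0.0625) in edgeR's test. DBF4, its activator (chr7:87876216-87909541), had 72.8, 85.3 and 94.2 CPM in DMSO and 66.1, 83.8 and 88.2 in auxin, a log2 fold change of -0.08 ± 0.13 (adjusted p 0.634). Both genes overlapped between groups, although each was lower in auxin within all 3 pairs. Under the replicate block their adjusted p was 3.66e-05 and 0.0332. The log2 fold change of DBF4 was 0.04 without auxin replicate 1 and with upper-quartile factors, and -0.06 without replicate 1 of both groups.

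All 9 polymerase and primase genes fell, with the largest falls in POLD1 and POLE. POLD1, the catalytic subunit of polymerase delta, which extends the lagging strand (chr19:50384204-50418016), had 20.98, 16.8 and 16.7 CPM in DMSO and 2.71, 1.47 and 1.61 in auxin, a 9.33-fold fall and a log2 fold change of -3.22 ± 0.25 (adjusted p 5.73e-05) in edgeR's test. POLE, the catalytic subunit of polymerase epsilon on the leading strand (chr12:132623753-132687365), went from 172, 136 and 145 to 32.7, 21.2 and 23.9 CPM, a log2 fold change of -2.54 ± 0.18 (adjusted p 3.37e-05). In both genes replicate 1 was the highest library of each group and no libraries overlapped. POLD2, the subunit that binds POLD1 (chr7:44114681-44124358), went from 54.2, 52.97 and 51.03 to 13.1, 12.5 and 13.8 CPM, a log2 fold change of -2.01 ± 0.063 (adjusted p 1.99e-06). The third delta subunit, POLD3, fell by only 0.75 on the log2 scale, and POLE2, the partner of POLE, by 0.59; both calls were lost with limma-trend on TPM, with an adjusted p of up to 0.0732 and 0.0666.

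Within a polymerase, the proportions of the subunits differed between the groups. The summed TPM of POLD1, POLD2 and POLD3 was 86.9, 55.7 and 56.9 in DMSO and 24.7, 17.6 and 20.04 in auxin, 31.2% of the DMSO mean and 36.9% without DMSO replicate 1. POLD3 went from 17.3% ± 1.39 (SD, n = 3) of that sum to 31.5% ± 1.02, without overlap. POLE2 went from 60.8% ± 1.89 to 81.4% ± 4.35 of the TPM of POLE and POLE2. The alpha-primase genes begin each new strand. POLA1, the catalytic subunit of polymerase alpha (chrX:24693919-24996986), had 89.7, 95.6 and 106 CPM in DMSO and 41.5, 47.8 and 50.4 in auxin, a log2 fold change of -1.06 ± 0.094 (adjusted p 9.73e-05) in edgeR's test. PRIM2, the large primase subunit (chr6:57314805-57646849), went from 82.5, 93.4 and 103 to 35.7, 40.05 and 44.8 CPM, a log2 fold change of -1.21 ± 0.11 (adjusted p 0.000109). Groups did not overlap in either gene. PRIM1, the small primase subunit, had the smallest fall of the 9, -0.49 (adjusted p 0.0017), and made up 38.96% ± 1.04 of the alpha-primase TPM in DMSO and 48.4% ± 1.06 in auxin. POLA2, at -0.80, shares 43662 bases with an overlapping annotated gene on the same strand, AP000944.2, so its reads could have been split.

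In the clamp and its loader, 5 of 6 genes fell and none by as much as 2-fold. PCNA, the sliding clamp that tethers the polymerases, went from 502, 541 and 596 to 282, 315 and 343 CPM, a log2 fold change of -0.80 ± 0.098 (adjusted p 0.000452) in edgeR's test. RFC3, a small subunit of the loader and the lowest by a narrow margin, had 65.9, 60.99 and 63.8 CPM in DMSO and 36.3, 35.4 and 37.6 in auxin, a log2 fold change of -0.80 ± 0.056 (adjusted p 3.26e-05). The groups did not overlap in either. RFC1, the large subunit of the loader, had 211, 259 and 274 CPM in DMSO and 173, 214 and 228 in auxin, a log2 fold change of -0.28 ± 0.13 (adjusted p 0.124), with overlap and with an adjusted p of 3.86e-05 under the replicate block. RFC1 made up 37.4% ± 2.05 (SD, n = 3) of the summed TPM of RFC1 to RFC5 in DMSO and 44.5% ± 3.32 in auxin. That sum was 62.1% of the DMSO mean, and 67.3% without DMSO replicate 1.

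Both genes of Okazaki fragment maturation fell, unequally. LIG1, the ligase that seals the nicks (chr19:48115445-48170603), had 26.6, 24.6 and 26.1 CPM in DMSO and 5.29, 4.67 and 4.91 in auxin, a log2 fold change of -2.38 ± 0.080 (adjusted p 2.30e-06) in edgeR's test. FEN1, the flap endonuclease, went from 159, 169 and 188 to 99.3, 107 and 122 CPM, a log2 fold change of -0.65 ± 0.099 (adjusted p 0.00127). The libraries of the groups did not overlap in either gene. FEN1 shares 4265 bases with an annotated gene on the same strand, FADS2, so its reads could have been split. FADS2 itself fell from a mean of 6.97 to 1.66 CPM, a log2 fold change of -2.06 (adjusted p 2.36e-05 in edgeR's test). LIG1 made up 18.6% ± 1.85 (SD, n = 3) of the TPM of the pair in DMSO and 7.30% ± 1.60 in auxin.

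The single-strand binding complex RPA, which coats unwound DNA, had 1 of 3 subunits called lower. RPA1, the large subunit (chr17:1829702-1900082), had 144, 176 and 194 CPM in DMSO and 128, 158 and 165 in auxin, a log2 fold change of -0.19 ± 0.14 (adjusted p 0.286) in edgeR's test. RPA2, the middle subunit (chr1:27891524-27914746), had 55.7, 64.98 and 73.4 CPM in DMSO and 49.9, 59.03 and 64.6 in auxin, a log2 fold change of -0.16 ± 0.13 (adjusted p 0.324). Both overlapped between groups, and replicate 1 was the lowest library of each group in both. The block on replicate number gave them an adjusted p of 0.00072 and 0.00074. RPA3, the small subunit, fell from 20.2, 26.99 and 26.1 to 11.9, 14.9 and 15.8 CPM, a log2 fold change of -0.78 ± 0.15 (adjusted p 0.00371) in edgeR's test, but shares 77897 bases with UMAD1 on the opposite strand, a gene that was itself lower, at -0.38 (adjusted p 0.00106). Whether counting used the strand is not given in the sources used here.

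All 6 genes of deoxynucleotide supply fell. TK1, the cytosolic thymidine kinase (chr17:78174075-78187233), had 72.9, 67.6 and 73.8 CPM in DMSO and 12.7, 12.9 and 13.1 in auxin, a log2 fold change of -2.47 ± 0.060 (adjusted p 1.54e-06) in edgeR's test. RRM2, the small subunit of ribonucleotide reductase, which makes deoxynucleotides (chr2:10120698-10131419), went from 599, 679.9 and 802 to 209, 257 and 279.8 CPM, a log2 fold change of -1.48 ± 0.14 (adjusted p 0.000146). The groups did not overlap in either, and the TK1 libraries of a group were closely spaced. RRM1, the large subunit of the same enzyme, fell by 0.98 on the log2 scale, and the TPM ratio of RRM2 to RRM1 was 2.23 ± 0.356 (SD, n = 3) in DMSO and 1.63 ± 0.223 (SD, n = 3) in auxin, without overlap. TYMS, which makes thymidylate, was at -0.87 and DTYMK, the thymidylate kinase, at -0.99. DUT, the enzyme that keeps uracil out of DNA, had the smallest fall of the 6, from 38.1, 46.03 and 45.3 to 23.05, 27.3 and 31.6 CPM, a log2 fold change of -0.66 ± 0.13 (adjusted p 0.0042) in edgeR's test. Summed over the 6 genes, the TPM was 765, 538 and 621 in DMSO and 276, 227 and 273 in auxin, 40.4% of the DMSO mean and 44.7% without DMSO replicate 1.

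Of 4 genes that protect forks, 3 fell by at least 2-fold and TIPIN did not pass the test. TIMELESS (chr12:56416373-56449403) and TIPIN form a complex that travels with the fork. TIMELESS had 36.8, 34.98 and 37.6 CPM in DMSO and 9.77, 6.76 and 7.07 in auxin, a log2 fold change of -2.21 ± 0.15 (adjusted p 2.72e-05) in edgeR's test. Its partner TIPIN (chr15:66336206-66386746) had 23.1, 24.1 and 27.1 CPM in DMSO and 19.3, 21.03 and 23.1 in auxin, a log2 fold change of -0.23 ± 0.094 (adjusted p 0.0769). TIPIN libraries were narrowly apart, with the lowest DMSO library just above the highest auxin library, and its adjusted p was 0.000637 under the replicate block. The TPM ratio of TIMELESS to TIPIN was 0.377 ± 0.0357 (SD, n = 3) in DMSO and 0.148 ± 0.0583 (SD, n = 3) in auxin. CLSPN, which encodes the checkpoint mediator claspin (chr1:35720218-35769967), went from 136, 138 and 157 to 62.1, 66.00 and 76.05 CPM, a log2 fold change of -1.08 ± 0.095 (adjusted p 9.51e-05) in edgeR's test. DONSON, a fork protection factor that also takes part in helicase assembly (chr21:33559542-33588708), went from 93.9, 86.3 and 94.4 to 44.8, 41.8 and 47.4 CPM, a log2 fold change of -1.03 ± 0.068 (adjusted p 2.55e-05). Neither overlapped between groups. DONSON shares 17940 bases with SON on the opposite strand, whose log2 fold change was 0.15 (adjusted p 0.0631 in edgeR's test).

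Genes with a higher GC content tended to have lower fold changes within the set and, above about 50% GC, among all genes. All tested coding genes were placed in 20 bins of GC content. Their median log2 fold change was 0.06 in the bin at 37.4% GC, 0.22 at 48.96% and -0.99 at 65.7%. Over the 53 genes, Spearman's rho between the GC content of the annotated transcripts and the log2 fold change was -0.54 and Pearson's r was -0.68, and over 14008 tested genes with a protein-coding transcript they were -0.36 and -0.42. These are correlations across genes of the same 6 libraries, which are not independent replicates, and so carry no p. The 19 genes with a GC content of at least 50% had a median log2 fold change of -1.37, and 11 of them fell by at least 2-fold. The 34 genes below 50% had a median of -0.76, with 7 such falls. Correction of each library for GC content gave 47 lower genes and a median of -0.94 for the 53. Longer introns went with smaller falls, with a rho of 0.38 over the 53 genes for the median intron length and 0.39 over 13602 genes. Which of these properties, if any, bears on the fall was not tested.

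**Figure D4:**
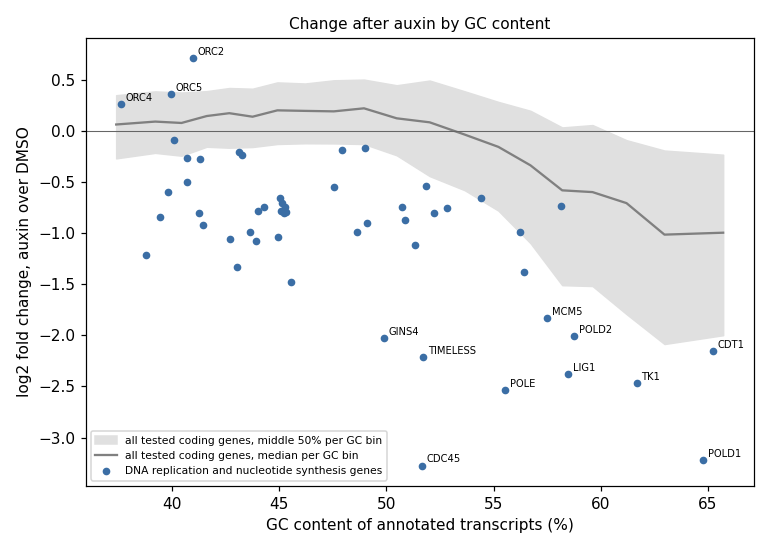
Log2 fold change after auxin against the GC content of the annotated transcripts for the 53 genes (points), over the median (line) and the middle 50% (band) of all tested coding genes in 20 bins of GC content. ORC2, ORC4 and ORC5 lie at the AT-rich end and POLD1 and CDT1 at the GC-rich end, while CDC45, POLE, TIMELESS and GINS4 lie far below the band at middle values. POLD1, TK1 and LIG1 also lie below the band, at higher GC content.

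The transcript tables show how the reads of a gene were divided among its annotated transcripts. The share of each transcript in its gene's count was compared with limma on the arcsine square root scale. Among 185 transcripts of 47 of the 53 genes, 18 had a higher and 9 a lower share after auxin, in 13 genes. The 27 transcripts became 11 in 7 genes without DMSO replicate 2, 13 in 8 genes without DMSO replicate 3, 11 in 6 genes with edgeR's diffSpliceDGE and 16 in 9 genes at a mean share of at least 5%. Over all 47699 transcripts tested, 8.78% were higher and 6.24% lower, against 9.73% and 4.86% of the 185. The members thus lay near the shares of all genes. Of all 10837 genes with transcripts tested, 3283 had at least 1 called, against the 13 of 47 here. The changes of at least 10 percentage points included losses of full-length coding transcripts. The main coding transcript POLD1-201 held 51.5%, 59.2% and 75.2% of the POLD1 count in DMSO and 12.8%, 21.9% and 29.3% in auxin, a change of -40.6 percentage points (adjusted p 0.0198, limma). POLD2-218 went from 66.8% ± 1.29 (SD, n = 3) to 33.7% ± 4.49 of POLD2 while another coding transcript, POLD2-207, went from 23.2% ± 1.46 to 40.4% ± 4.13 (adjusted p 0.00148 and 0.00863, limma). Groups did not overlap for any of the 3 transcripts.

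Smaller shifts of at least 10 points were seen in 5 other genes. TIMELESS-203, coding, went from 67.8% ± 2.93 (SD, n = 3) to 50.97% ± 3.98 of TIMELESS. DTYMK-202, annotated as a target of nonsense-mediated decay, went from 22.2% ± 3.10 to 34.7% ± 4.85 of DTYMK, close to the threshold (adjusted p 0.0496, limma). The coding transcripts DUT-202, MCM4-223 and GINS4-201 changed by -12.2, -11.8 and -11.6 percentage points, with adjusted p of 0.0132, 0.0215 and 0.0412 in limma. The calls of TIMELESS-203, DTYMK-202, DUT-202, MCM4-223 and GINS4-201 were each lost in at least 4 of 10 other settings, so that only POLD1 and POLD2, with 8 or 9 of 10 kept, and TIMELESS-205, with all 10, stood firm among the 10 transcripts named by size.

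Transcripts annotated as retaining an intron were called with a higher share in 6 of the 27 genes where any was tested. None was called with a lower share. Among all genes, 1077 of 3942 had such a transcript called in either direction. Of 41 such transcripts tested in 27 genes, 9 were higher (22.0%) and 0 lower by limma's adjusted p, against 21.8% higher and 2.4% lower among all 7259 retained-intron transcripts tested, so the higher share is near that of all genes. TIMELESS-205 held 7.79%, 5.36% and 4.08% of TIMELESS in DMSO and 26.8%, 22.6% and 18.5% in auxin (adjusted p 0.00674, limma). POLD1-208 went from 7.93%, 5.86% and 4.91% to 34.7%, 19.3% and 26.3% of POLD1 (adjusted p 0.0125, limma). MCM5-209 went from 2.90%, 2.59% and 2.33% to 12.3%, 10.3% and 10.5% of MCM5 (adjusted p 0.00193, limma). The auxin libraries lay above the DMSO libraries in all 3, and replicate 1, the most deeply sequenced of each group, was highest in both groups. The other 6 were POLD1-211, LIG1-211, LIG1-214, TIMELESS-204, CDC45-211 and POLD2-216. CDC45-211 was close to the threshold, with a mean share of 0.691% in DMSO and 3.05% in auxin (adjusted p 0.0463, limma). Its gene had a mean of only 2.61 CPM in auxin, and the summed share of all CDC45 retained-intron transcripts overlapped between groups.

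A larger share did not always mean more of the transcript itself. In CPM, the mean of the 9 transcripts was higher in auxin for 5 and lower for 4, and for 6 of the 9 the libraries of the groups overlapped. POLD1-208 went from 1.66, 0.986 and 0.821 CPM in DMSO to 0.939, 0.285 and 0.424 in auxin. TIMELESS-205 had 2.87, 1.88 and 1.54 CPM in DMSO and 2.62, 1.53 and 1.31 in auxin. In POLD1-208 and TIMELESS-205 the libraries overlapped, while the gene's total fell. POLD2-216 was 1 of 2 transcripts, with TIMELESS-204, whose CPM was higher in every auxin library, at 0.123, 0.0567 and 0.118 in DMSO and 0.251, 0.251 and 0.293 in auxin. The count of 9 fell to 3 without DMSO replicate 2 or without DMSO replicate 3, and to 5 without DMSO replicate 1.

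**Figure D5:**
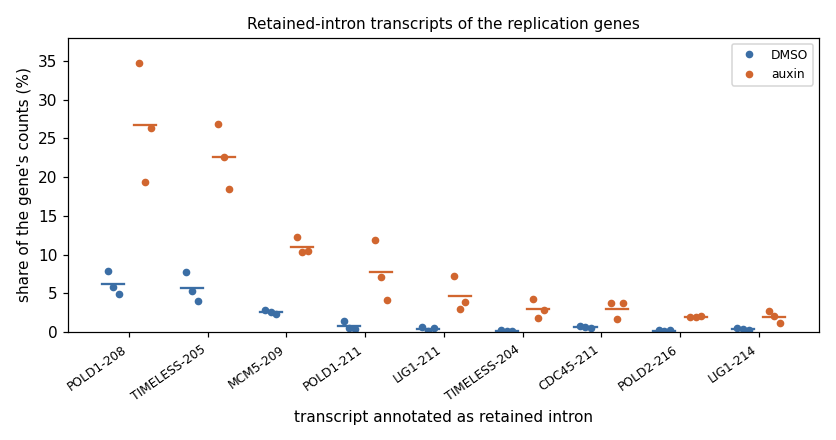
Share of the gene's count held by each of the 9 retained-intron transcripts with a higher share after auxin, in the 3 DMSO and 3 auxin libraries, replicates 1 to 3 from left to right (points), with group means (lines). The auxin points lie above the DMSO points for each transcript, with means from 26.8% for POLD1-208 down to 2.01% for LIG1-214 in auxin.

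The introns that these transcripts keep and the coding transcript removes could be read in 5 cases of at most 300 bases, from GENCODE release 29 transcripts on GRCh38. The capitals mark the first 6 and the last 2 bases, where the splice sites lie. Introns are numbered from the 5′ end of the coding transcripts POLD1-201, TIMELESS-203 and CDC45-201; POLD1-211 keeps the first one shown, TIMELESS-204 the next, TIMELESS-205 the following pair and CDC45-211 the last.
POLD1 intron 5, chr19:50402125-50402204, plus strand: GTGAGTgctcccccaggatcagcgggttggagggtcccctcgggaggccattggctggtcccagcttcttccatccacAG
TIMELESS intron 21, chr12:56421810-56421898, minus strand: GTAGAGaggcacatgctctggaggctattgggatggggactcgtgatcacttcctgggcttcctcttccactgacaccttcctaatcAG
TIMELESS intron 22, chr12:56421494-56421726, minus strand: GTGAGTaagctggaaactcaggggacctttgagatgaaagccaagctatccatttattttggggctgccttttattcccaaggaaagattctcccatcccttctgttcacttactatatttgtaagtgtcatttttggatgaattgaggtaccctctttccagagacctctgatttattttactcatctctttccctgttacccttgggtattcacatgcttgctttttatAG
TIMELESS intron 23, chr12:56421135-56421350, minus strand: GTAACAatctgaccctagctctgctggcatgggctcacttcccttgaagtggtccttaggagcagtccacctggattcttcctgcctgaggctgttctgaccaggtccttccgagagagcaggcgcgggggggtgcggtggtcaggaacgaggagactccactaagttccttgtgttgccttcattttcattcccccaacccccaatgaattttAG
CDC45 intron 1, chr22:19480020-19480157, plus strand: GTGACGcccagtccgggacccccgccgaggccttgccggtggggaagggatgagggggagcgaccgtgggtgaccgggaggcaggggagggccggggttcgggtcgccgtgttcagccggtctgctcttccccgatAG
For contrast, 3 introns lie in retained-intron transcripts whose share was not called: MCM7-210 held 65.2%, 57.5% and 53.6% of MCM7 in DMSO and 65.4%, 54.1% and 59.02% in auxin, and RFC4-212 held 4.37% ± 0.759 (SD, n = 3) and 6.60% ± 1.42 of RFC4.
MCM7 intron 4, chr7:100099204-100099278, minus strand: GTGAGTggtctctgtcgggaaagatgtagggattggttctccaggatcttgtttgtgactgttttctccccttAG
RFC4 intron 9, chr3:186790256-186790325, minus strand: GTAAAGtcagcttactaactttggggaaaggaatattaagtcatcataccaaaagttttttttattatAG
RFC4 intron 10, chr3:186790065-186790141, minus strand: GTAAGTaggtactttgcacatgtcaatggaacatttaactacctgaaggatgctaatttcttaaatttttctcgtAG
MCM7-210 was the larger part of the MCM7 count in every library, in both groups alike, while its CPM fell with the gene, from 134 to 52.7 on average. The 5 introns of the called transcripts have 40.3% to 73.2% GC and the 3 others 28.6% to 48.0%, too few for a comparison. All 8 start with GT and end with AG.

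Genes of the same pathway outside the 53 gave a mixed picture. Of 32 other replisome and chromatin assembly genes, 26 were lower and 4 higher (CHTF8, RNASEH2B, ASF1A and TOP1), with a median log2 fold change of -0.87. These are 81.25% and 12.5%, against 26.9% and 25.4% of all tested genes. The 4 higher genes became 1 without DMSO replicate 2, 2 without DMSO replicate 1, auxin replicate 2 or auxin replicate 3, and 0 with limma-trend on TPM. RECQL4, a helicase that acts at replication initiation, went from 36.6 ± 10.4 (SD, n = 3) to 4.18 ± 1.70 CPM, a log2 fold change of -3.12 ± 0.33 (adjusted p 0.000208) in edgeR's test. DNMT1, the maintenance DNA methyltransferase, went from 177 ± 12.3 to 22.4 ± 2.13 CPM, a log2 fold change of -2.98 ± 0.093 (adjusted p 1.99e-06). UHRF1, which guides DNMT1 to replicated DNA, and RNASEH2A, the catalytic subunit of the ribonuclease that removes ribonucleotides from DNA, were at -2.41 and -2.50.

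The other 29 nucleotide synthesis genes were divided, with 12 lower and 11 higher and a median of -0.04. These are 41.4% and 37.9%, against 26.9% and 25.4% of all tested genes. IMPDH1 and IMPDH2, which carry out the rate-limiting step of guanine nucleotide synthesis, were at -3.22 and -3.05. IMPDH2 went from 225, 314 and 304 to 26.03, 39.2 and 36.9 CPM, without overlap (adjusted p 2.45e-05, edgeR). PFAS, an enzyme of purine synthesis, was at -2.66 and SHMT2, the mitochondrial enzyme that feeds one-carbon units into it, at -2.08. The count of 11 higher genes was 5 without DMSO replicate 2, 6 without auxin replicate 3, and 7 without DMSO replicate 1, DMSO replicate 3 or auxin replicate 2, and 0 with limma-trend on TPM.

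Most regulators of the cell cycle and all markers of a later phase were lower too. Of 26 G1/S regulators, 19 were lower (73.1%) and 4 higher (15.4%), with a median of -0.62. Of all tested genes, 26.9% were lower and 25.4% higher. E2F1, an activator of S-phase genes, went from 36.3, 28.3 and 29.8 to 1.57, 1.18 and 1.14 CPM, a log2 fold change of -4.59 ± 0.17 (adjusted p 3.17e-06) in edgeR's test. E2F4, E2F8 and CDK4 were at -3.78, -1.91 and -2.25. All 20 G2/M genes were lower, with a median of -0.77, against -0.80 for the 53. AURKB, a mitotic kinase, was at -2.10, the kinesin KIF11 at -1.37, CDK1 at -1.31 and NUSAP1 at -1.22. The share of cells in each phase was not measured, and its part in these values was not tested.

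Expected counts summed to between 270782000 and 546128000 in the DMSO libraries and between 234038000 and 625895000 in the auxin libraries, with replicate 1 the deepest of each group. The smallest expected count of any of the 53 genes in any library was 352, for POLD1. All libraries expressed the epithelial genes EPCAM, CDH1, KRT8, KRT18 and KRT19, with CDX2 at 9.27, 7.28 and 7.67 CPM in DMSO and 13.3, 11.1 and 11.4 in auxin and VIL1 near 0, and the summed CPM of these 7 markers was 2729 to 3089 in DMSO and 3689 to 3977 in auxin. The 4 leukocyte markers summed to at most 1.22 CPM, the 3 endothelial ones to at most 0.432 and the 4 fibroblast ones to 1.52 to 5.31, nearly all from COL1A1. The split of all genes into lower and higher depended on the scale: with TMM it was 5311 lower and 5010 higher, with upper-quartile factors 4416 and 6534, and with limma-trend on log2(TPM + 1) 2966 and 970. Upper-quartile factors moved the median of all genes from 0.02 to 0.15, and the median of the 53 genes by that fit was -0.68.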

How the data were processed

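RNA-seq libraries of HCT116 cells given auxin (n = 3) or DMSO (n = 3) were compared. The authors deposited, for each library, an expected count (an estimated number of reads, not normalized) and a TPM (abundance per length, scaled to a fixed total) per gene and per transcript. The authors' tables also give a posterior standard deviation of each count, used here only as a check of how firmly reads were assigned. The submitters' processing notes name bcl2fastq 2.20, STAR, DESeq2, GRCh38 and hg38. The program that made the tables, its version and its use of strand are not given in the sources used here, although the kit was stranded per the labels' protocols. IDs were matched to GENCODE release 29, and 746 IDs that name no human gene were left out, at most 11.1 CPM of a library.

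Expected counts were rounded and tested with edgeR 4.0.16 (R 4.3.3; filterByExpr, TMM, glmQLFit, glmQLFTest), with Benjamini-Hochberg adjustment over 19725 genes. SE values were derived from the fit. Transcript shares (genes with at least 100 counts in every library, mean share of at least 1%) were tested with limma 3.58.1 on the arcsine square root scale. Fits were tested on simulated data. DESeq2 1.42.0, other scalings, filters, GC correction, TPM with pseudocounts of 1 and 0.1, each library left out and a replicate block were the alternatives. Deviations of same-numbered libraries from their group means correlated across genes at 0.651, 0.265 and 0.276 for numbers 1, 2 and 3. The deviations within a group cancel out, so a difference of replicate 1 alone would also make numbers 2 and 3 correlate. Auxin replicate 1 correlated negatively with DMSO replicates 2 and 3 (-0.362 and -0.475), so replicate 1 deviated alike in both groups. Auxin replicate 2 correlated more with DMSO replicate 3 (0.312), so the values do not establish a pairing of numbers 2 and 3. The labels do not state a shared batch, so the main fit was unpaired and the replicate block served as an alternative only.

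The members and lists were chosen with earlier results of these data known. Full values are given for members changed at least 2-fold and for the 6 with the smallest change, for the highest and lowest of each role, for up to 4 called genes of each other list, and for up to 10 transcripts that changed by at least 10 percentage points; other names were added after their values were seen. Promoters were missing for DONSON, GINS4, MCM4, MCM5, POLD3, RPA2 and RPA3.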

Additional observations from a re-analysis of the deposited data

How the results depend on the processing

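Of the 46 called genes, 41 were called in all 17 alternatives; ORC2, ORC4, ORC5, POLD3 and POLE2 were not. The count of lower genes among the 53 ran from 41 to 50, and the replicate block gave 50 lower and 3 higher. With limma-trend on log2(TPM + 1) and on log2(TPM + 0.1), the counts of higher genes were 0 among the 53 and 0 among the other replisome, the other nucleotide synthesis and the G1/S genes; the cause was not tested. With library size only, 2 G1/S genes were higher. With 1 library left out, the higher genes numbered 1 to 5 of the other replisome genes and 5 to 10 of the other nucleotide synthesis genes. The median log2 fold change of the latter turned to 0.0758 with upper-quartile factors and ran from -0.113 to 0.0405 with 1 library left out. That of DBF4 turned to 0.0363 with upper-quartile factors and ran from -0.175 to 0.0358 with 1 library left out, highest without auxin replicate 1.

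Member transcripts with a changed share numbered 16 at a mean share of at least 5%, 11 with edgeR diffSpliceDGE, 11 to 22 with 1 library left out and 31 with the replicate block. Genes with such a transcript numbered 6 with diffSpliceDGE and 7 to 11 with 1 library left out. Retained-intron transcripts with a higher share numbered 3 at a mean share of at least 5% and 3 to 7 with 1 library left out. Summed TPM as a percent of DMSO ran, with 1 library left out, from 79.2% to 95.0% for ORC, 37.4% to 44.7% for deoxynucleotide genes, 34.9% to 43.2% for GINS and 28.3% to 36.9% for polymerase delta.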

Other observations

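Within the other nucleotide synthesis genes, enzymes of 1 pathway moved in both directions; these genes were chosen after their values were seen. In purine synthesis, PPAT, GART, PAICS and ATIC were higher, at 0.45, 0.50, 0.27 and 0.50 on the log2 scale, while PFAS, ADSL, IMPDH1 and IMPDH2 were lower, at -2.66, -0.26, -3.22 and -3.05. GART went from 290.2 ± 10.1 (SD, n = 3) to 409.7 ± 25.1 CPM (adjusted p 0.000799, edgeR) and PFAS from 21.04 ± 2.80 to 3.32 ± 1.19 CPM (adjusted p 0.000133, edgeR). In pyrimidine synthesis, CAD, which carries out the first steps, was at -1.96 and UMPS, which carries out the last, at 0.51. All 4 rises in purine synthesis and that of UMPS were lost with limma-trend on TPM.

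In MCM4, the coding transcript MCM4-201 rose as MCM4-223 fell. MCM4-201 held 2.19%, 1.12% and 1.13% of the MCM4 count in DMSO and 17.4%, 9.44% and 11.1% in auxin, and its CPM went from 10.2, 5.26 and 5.80 to 42.2, 23.3 and 31.9 while the gene fell (adjusted p 0.00827, limma). The call held in all 10 alternatives. AP4M1, which shares 392 bases with MCM7 on the opposite strand, had a log2 fold change of -2.74 (adjusted p 4.05e-05 in edgeR's test).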
